A study of Mus musculus with 6 samples.

Results

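Chemokines and their receptors were followed on gene arrays of primary osteoblasts from the calvaria of newborn CD1 mice, 2 to 5 days old. The members were chosen by gene symbol: every Ccl, Cxcl, Cx3cl and Xcl ligand, every Ccr, Cxcr, Cx3cr and Xcr receptor, and the platelet chemokines Pf4 and Ppbp. This gave 54 genes, 36 ligands and 18 receptors, of 32451 genes or transcripts with a probe. They were read by 64 probes. The undifferentiated osteoblasts were grown to confluence (2 arrays), the differentiated osteoblasts were then kept for 30 days in differentiation medium (2 arrays), and the cabozantinib group was kept for the same 30 days in that medium with 100 nM cabozantinib, an inhibitor of the receptor kinases MET and VEGFR2 (2 arrays). The 30 days are those of the labels and the methods, while the study's text also names a shorter differentiation. The cells were collagenase digests of calvaria and not a sorted population or a clone, and the labels do not say whether the arrays of a group came from separate cultures, so p-values measured only the spread between these arrays.

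Chemokines are small secreted proteins that attract leukocytes and other cells along a gradient, and they signal through G protein-coupled receptors on the responding cell. They are grouped by the spacing of conserved cysteines into the CC, CXC, XC and CX3C families, and many of their genes lie in tandem on a chromosome. In bone, osteoblasts and stromal cells are known as a source of Cxcl12, which holds hematopoietic cells in the marrow, and of the monocyte attractant Ccl2, while macrophages and osteoclasts make Ccl3, Ccl4, Ccl6 and Ccl9 and carry receptors such as Ccr1, Ccr2 and Cx3cr1.

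The share of spots that the scanner software called well above background ranged from 58.8% to 72.9% over the 6 arrays, and no spot was saturated. The file headers gave 1 scan for the 4 arrays without cabozantinib and another scan for both cabozantinib arrays, so scan and cabozantinib cannot be told apart. Marker list counts in this paragraph stand beside 9.71% of all genes tested that passed the same test, 5.26% higher and 4.44% lower. The osteoblast marker list held 10 genes, all 10 of them tested. Of these, 4 were higher and 1 was lower in differentiated than in undifferentiated osteoblasts (limma, adjusted p under 0.05). The log2 differences of these 10 genes ran from -3.67 to 6.38, with a median of 0.38. Without the replicate term 4 were higher and 0 lower, beside 13.4% of all genes called. One of the higher genes, the osteocalcin gene Bglap2, was higher by 5.06 ± 0.50 on the log2 scale (SE, limma, adjusted p = 0.000477). The macrophage list (13 genes, 11 tested) had 6 genes higher and 0 lower in that comparison. Its summed signal, as a multiple of the 75th percentile signal of each array, was 37.7 to 63.4 in undifferentiated, 385 to 493 in differentiated and 346 to 419 in cabozantinib-treated osteoblasts. Adgre1, a surface receptor used to mark mouse macrophages, was at 2.24 and 2.51, 6.23 and 6.59, and 5.98 and 5.77 in these groups, in log2 units from the 75th percentile, while C1qa was not well above background on any array and no probe was named Cd68. The osteoclast list (5 genes, 4 tested) had 2 genes higher and 0 lower with differentiation. Its summed signal was 34.2 to 55.2, 123 to 181 and 111 to 139 in the same order. The neutrophil list (8 genes, 6 tested) had 2 genes lower, S100a8 and S100a9, and its summed signal was 9.96 to 16.6, 5.67 to 7.19 and 4.46 to 5.15 in the same order. The part of these cell type markers in the results below was not tested. In cultures read in bulk, fewer cells of a type and less RNA per cell cannot be told apart.

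Values are given below as the scaled signal, which is the log2 signal of a probe minus the 75th percentile of its array, so that a difference of 1 is a doubling. It is not comparable between probes. A gene was tested where at least 2 of the 6 arrays had a probe of it well above background, and it was described by its brightest probe. Of the 36 ligands, 26 were tested, and 22 of these were well above background on all 6 arrays. Cxcl3 passed the background only on undifferentiated replicate 2 and Cxcl17 only on differentiated replicate 1, and 8 ligands passed it on no array (Ccl1, Ccl11, Ccl20, Ccl22, Ccl26, Cxcl2, Cxcl15 and Xcl1). Of the 18 receptors, 15 were tested, and 7 of these were well above background on all 6 arrays. Ccr4 passed only on differentiated replicate 2, and Cxcr2 and Xcr1 on no array. A member that was tested only because it was bright in a single condition had to differ, so counts below are read beside those of all genes and are not taken over all members.

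**Figure D1:**
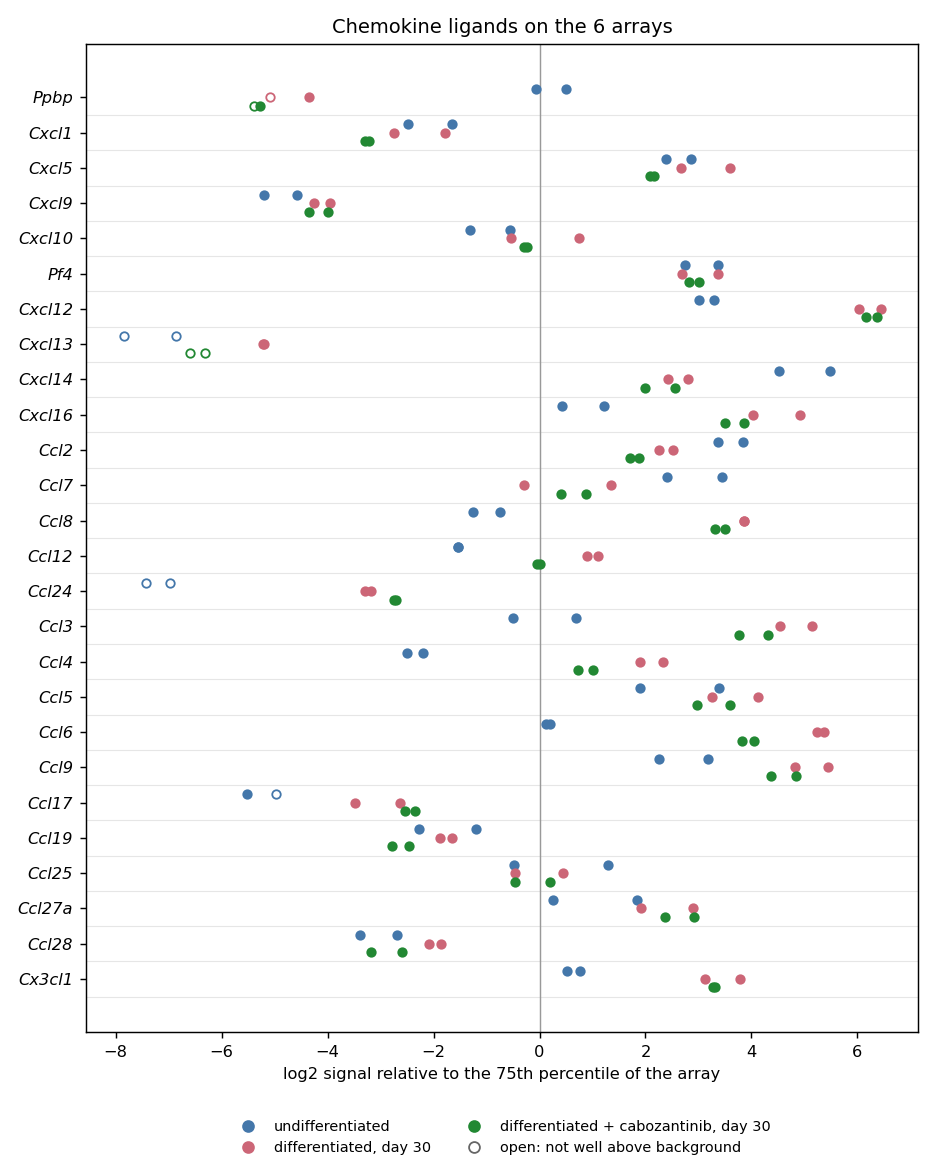
Scaled log2 signal (x axis) of the 26 tested ligands on each of the 6 arrays, with 1 point per array, colors for the 3 conditions and open points where the probe was not well above background. Ccl3, Ccl4, Ccl6 and Ccl8 lie to the right of the undifferentiated arrays in both other conditions, and Ppbp lies far to the left.

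The first comparison addressed how the chemokine genes differed between confluent and differentiated osteoblasts. Of the 26 ligands tested, 12 were higher and 3 were lower in differentiated osteoblasts (limma, adjusted p under 0.05). Of all 23086 genes tested, 9.71% passed the same test, 5.26% higher and 4.44% lower. Among the 12 higher ligands, Cxcl13 was tested only through the differentiated arrays, and Ccl24 only through the differentiated and cabozantinib arrays. The median log2 difference was 1.22 over the ligands and 0.11 over all genes. For 16 ligands both differentiated arrays lay above both undifferentiated arrays and for 4 they lay below, beside 25.9% and 19.4% of all genes. Restricted to probes well above background on all 6 arrays, 11 of 22 ligands passed, beside 10.6% of all genes. The count of ligands fell to 8 without differentiated replicate 2, when Ccl7, Ccl9, Ccl12, Ccl17, Cxcl13, Cxcl14 and Cx3cl1 no longer passed. After a normexp background correction, which models background and adds an offset, the count was 9, without Ccl7, Ccl12, Ccl17, Ccl24, Cxcl13 and Cxcl14. Across 17 alternative limma fits, 7 of the 15 calls were kept in every fit that tested the gene, those of Ccl3, Ccl4, Ccl6, Ccl8, Cxcl12, Cxcl16 and Ppbp.

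The sequence just upstream of the start site is shown for 5 of these ligands, the neighbors Ccl3, Ccl6 and Ccl9, which were higher together, Ccl8, and Ppbp, the ligand that fell most. Each is the last 150 bases before the RefSeq transcript start in GRCm38.p6, written 5′ to 3′ on the strand of the gene. Capitals mark TATAAA (the TATA box), the kB site bound by NF-kB (GGG, then NN for any bases, then TTTCC) or TGANTCA (an AP-1 site), searched on both strands. Where the forms of both strands overlap, as in TTTATAAA, the whole run is in capitals.
Ccl3, chr11:83649379-83649528, minus strand: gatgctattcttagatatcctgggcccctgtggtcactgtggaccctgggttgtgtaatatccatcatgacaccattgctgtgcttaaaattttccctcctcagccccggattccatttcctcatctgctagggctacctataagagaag
Ccl6, chr11:83593088-83593237, minus strand: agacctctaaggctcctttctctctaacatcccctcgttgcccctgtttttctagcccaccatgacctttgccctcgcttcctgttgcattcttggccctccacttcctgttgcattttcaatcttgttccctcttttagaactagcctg
Ccl9, chr11:83578637-83578786, minus strand: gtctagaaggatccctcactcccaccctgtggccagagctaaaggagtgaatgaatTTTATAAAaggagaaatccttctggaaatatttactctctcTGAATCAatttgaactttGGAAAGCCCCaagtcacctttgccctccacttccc
Ccl8, chr11:82115035-82115184, plus strand: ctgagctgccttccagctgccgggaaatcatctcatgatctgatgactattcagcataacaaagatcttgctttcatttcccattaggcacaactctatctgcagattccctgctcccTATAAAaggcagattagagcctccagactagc
Ppbp, chr5:90768368-90768517, plus strand: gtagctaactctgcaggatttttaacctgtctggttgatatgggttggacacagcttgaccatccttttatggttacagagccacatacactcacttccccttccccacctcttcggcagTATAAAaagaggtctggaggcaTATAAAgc

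Ccl8 had a TATA box 32 bases before its start and Ppbp had TATA boxes 30 and 8 bases before it. Ccl9 was the member here with all 3 kinds of match, a kB site 35 bases, an AP-1 site 53 bases and a TATA box 94 and 92 bases before the start on the 2 strands. The stretches of Ccl3 and Ccl6 held none of these letters. Promoters were given for 40 of the 54 members. In the 250 bases before the start, TATAAA was found in 34.5% of 29 ligand promoters, 13.3% of 15 receptor promoters and 12.4% of all 32851 promoters. The kB site was found in 17.2% of the ligand promoters (Ccl9, Ccl20, Cxcl1, Cxcl2 and Cxcl3), 6.67% of the receptor promoters (Ccr3) and 1.41% of all promoters. TGANTCA was found in 13.8%, 13.3% and 6.75%, respectively. These matches are descriptions of the sequence, not evidence of binding.

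The ligands Ccl3, Ccl4, Ccl5, Ccl6 and Ccl9, which attract monocytes and other leukocytes, had the highest median difference of the ligand groups, with 4 of 5 genes higher and a group median of 4.45. Ccl6, which attracts monocytes and other myeloid cells, was at 0.19 and 0.12 in undifferentiated, 5.38 and 5.24 in differentiated and 3.82 and 4.05 in cabozantinib-treated osteoblasts, and values below are in this order. The 3 conditions did not overlap, and the differentiated arrays were higher than the undifferentiated ones by 5.15 ± 0.48 (SE; limma, adjusted p = 0.000381). Ccl3, also known as MIP-1 alpha, was at 0.69 and -0.50, 4.53 and 5.14, and 3.77 and 4.31, a rise of 4.74 ± 0.58 with differentiation (limma, adjusted p = 0.00132). Ccl4, or MIP-1 beta, was at -2.19 and -2.49, 1.90 and 2.32, and 0.72 and 1.02, a rise of 4.45 ± 0.50 (limma, adjusted p = 0.000866). For both genes, every differentiated array was above every undifferentiated array, and the cabozantinib arrays lay between them. Ccl9, or MIP-1 gamma, which osteoclasts and macrophages make, was at 3.18 and 2.26, 4.83 and 5.44, and 4.36 and 4.84, a rise of 2.42 ± 0.55 (limma, adjusted p = 0.0217). This call was lost without undifferentiated replicate 2 (adjusted p = 0.0564) and without differentiated replicate 2 (adjusted p = 0.25). Ccl5 (RANTES), which also attracts T cells, was at 3.38 and 1.90, 3.26 and 4.12, and 2.96 and 3.60. Its arrays overlapped, and the difference of 1.05 ± 0.63 did not pass (limma, adjusted p = 0.43).

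The monocyte chemoattractants and eotaxins moved in both directions, with 3 of 5 tested genes higher and 1 lower. Ccl8, or MCP-2, was at -0.75 and -1.25, 3.86 and 3.87, and 3.31 and 3.50, a rise of 4.86 ± 0.49 (limma, adjusted p = 0.000525). Ccl12, or MCP-5, a ligand of CCR2, was at -1.55 and -1.54, 0.90 and 1.09, and 0.01 and -0.05, a rise of 2.54 ± 0.48 (limma, adjusted p = 0.00925), a call lost without either differentiated array (adjusted p = 0.0518 and 0.0957). Ccl24, or eotaxin-2, which acts on CCR3, was not well above background on either undifferentiated array (-6.98 and -7.42), and was at -3.18 and -3.30 and at -2.74 and -2.72 in the other groups. Here and below, a fold given as at least is a lower bound in the scaled signal only. It was set against the lowest signal well above background on each array (or the probe's own signal where higher). Differences after normexp can be smaller than this bound. Differentiated osteoblasts were at least 7.14-fold higher (limma, adjusted p = 0.00132). Ccl24 was tested only through the differentiated and cabozantinib arrays, so this p-value carries no weight of its own. After a normexp background correction the difference was 0.93 and did not pass (limma, adjusted p = 0.854). Ccl7 was the member of this group that was lower. Ccl7, or MCP-3, was at 2.41 and 3.45, 1.36 and -0.30, and 0.88 and 0.40, and fell by 2.40 ± 0.65 (limma, adjusted p = 0.0448). It did not pass without undifferentiated replicate 2 (adjusted p = 0.158), without differentiated replicate 2 (adjusted p = 0.6) or after quantile normalization (adjusted p = 0.12). Ccl2, or MCP-1, the main CCR2 ligand, was at 3.37 and 3.83, 2.52 and 2.26, and 1.88 and 1.71, with no overlap of the groups but a difference of -1.22 ± 0.50 that did not pass (limma, adjusted p = 0.187).

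Among the CXC ligands outside the neutrophil-attracting and the interferon-induced groups, 3 of 5 tested genes were higher and 1 was lower. Cxcl12 (SDF-1), the ligand of CXCR4, was at 3.30 and 3.01, 6.02 and 6.44, and 6.17 and 6.38, a rise of 3.08 ± 0.49 (limma, adjusted p = 0.00425). A second probe of Cxcl12 gave a rise of 2.61 ± 0.48 (limma, adjusted p = 0.00829). Cxcl16, a membrane-bound ligand of CXCR6, was at 1.23 and 0.43, 4.03 and 4.92, and 3.50 and 3.85, a rise of 3.65 ± 0.55 (limma, adjusted p = 0.00332). Both genes kept all differentiated arrays, with or without cabozantinib, above the undifferentiated arrays. Cxcl13, the B cell attractant that acts on CXCR5, was well above background only on the differentiated arrays (-5.19 and -5.21), against -6.86 and -7.85 on the undifferentiated arrays. After normexp the difference of Cxcl13 was 0.09. In the scaled signal it was at least 1.83-fold higher in differentiated than in undifferentiated osteoblasts (limma, adjusted p = 0.0292). It was tested only through the differentiated arrays and so had to differ. That call was lost without undifferentiated replicate 2 (adjusted p = 0.0631), without differentiated replicate 1 (adjusted p = 0.117) and without differentiated replicate 2 (adjusted p = 0.258). Cxcl14, a chemokine made by many resting epithelia, was at 5.48 and 4.52, 2.43 and 2.81, and 1.99 and 2.56, and fell by 2.38 ± 0.55 (limma, adjusted p = 0.0228), without differentiated replicate 1 with an adjusted p of 0.188 and without differentiated replicate 2 with 0.0522. Pf4, the platelet factor whose gene lies beside Ppbp, was at 3.36 and 2.75, 2.70 and 3.36, and 2.83 and 3.01, and its groups overlapped. The interferon-induced ligands of CXCR3, Cxcl9 and Cxcl10, did not pass, with differences of 0.78 and 1.04, although both differentiated arrays lay above both undifferentiated arrays for each.

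Of the neutrophil-attracting CXC ligands, 3 of 6 were tested and 1, Ppbp, was lower. Ppbp, the precursor of Cxcl7, was at 0.50 and -0.08, -5.09 and -4.35, and -5.38 and -5.28. It passed the background on both undifferentiated arrays and on replicate 2 of each other group, and it fell by 4.93 ± 0.52 with differentiation (limma, adjusted p = 0.000675). The platelet and megakaryocyte markers had 0 of 4 tested genes called in this comparison (limma, adjusted p under 0.05), with or without the replicate term. Of all genes 9.71% and 13.4% were called in these fits, so a count of 0 of 4 lies near the share of all genes. Itga2b and Gp6 were not well above background on any array. Cxcl5 was at 2.39 and 2.85, 3.59 and 2.67, and 2.16 and 2.09, and Cxcl1 was at -2.49 and -1.65, -1.78 and -2.74, and -3.22 and -3.30. Both attract neutrophils through CXCR2, and both overlapped between undifferentiated and differentiated arrays.

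In the remaining groups, Cx3cl1 and Ccl17 were higher. Cx3cl1 (fractalkine), a membrane-anchored ligand of CX3CR1, was at 0.76 and 0.53, 3.13 and 3.78, and 3.28 and 3.32, a rise of 2.81 ± 0.50 (limma, adjusted p = 0.00687), which did not pass without differentiated replicate 2 (adjusted p = 0.0935). Ccl17, a ligand of CCR4, was dimmer, at -4.98 and -5.53, -3.48 and -2.64, and -2.54 and -2.34, with a rise of 2.19 ± 0.53 (limma, adjusted p = 0.028). It was well above background on 1 undifferentiated array, and after normexp the difference was 0.71 and did not pass. It did not pass without undifferentiated replicate 2 (adjusted p = 0.0748) or differentiated replicate 2 (adjusted p = 0.433). Ccl19, Ccl25, Ccl27a and Ccl28, which act on CCR7, CCR9 and CCR10, did not pass. Ccl27a, an epithelial chemokine, was at 1.83 and 0.26, 1.92 and 2.90, and 2.36 and 2.91, with a difference of 1.37 ± 0.65 (limma, adjusted p = 0.274). Its other probes gave 1.36 ± 0.63 and, for a dim probe well above background on 2 arrays, -1.32 ± 0.49 (limma, adjusted p = 0.258 and 0.146). Between cabozantinib-treated and differentiated osteoblasts, the 2 brighter probes of Ccl27a differed by 0.22 ± 0.65 and 0.32 ± 0.63 (limma, adjusted p = 0.932 and 0.882). The dim probe was well above background on neither differentiated array. In that comparison it differed by 0.94 ± 0.49 (1.84 after quantile normalization), or at least 1.54-fold (limma, adjusted p = 0.299). Ccl25, read at 1.29 and -0.48, -0.47 and 0.44, and -0.47 and 0.21, overlapped in all 3 conditions. The 3 probes of Ccl19 disagreed, with differences of -0.03, 0.16 and 1.84 for differentiated against undifferentiated osteoblasts. The last was a dim probe, well above background on 0 undifferentiated arrays and 1 differentiated array, and the others passed on all 6 arrays. For cabozantinib-treated against undifferentiated osteoblasts the dim probe gave 2.41 (limma, adjusted p = 0.021), or 0.24 after normexp. The others gave -0.89 and -1.08 there (limma, adjusted p = 0.299 and 0.186). The RefSeq annotation holds 6 further members with no probe named here, Cxcl11 and copies of the Ccl21 and Ccl27 genes, so signal of near-identical copies in the Ccl27a probe could not be told apart.

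**Figure D2:**
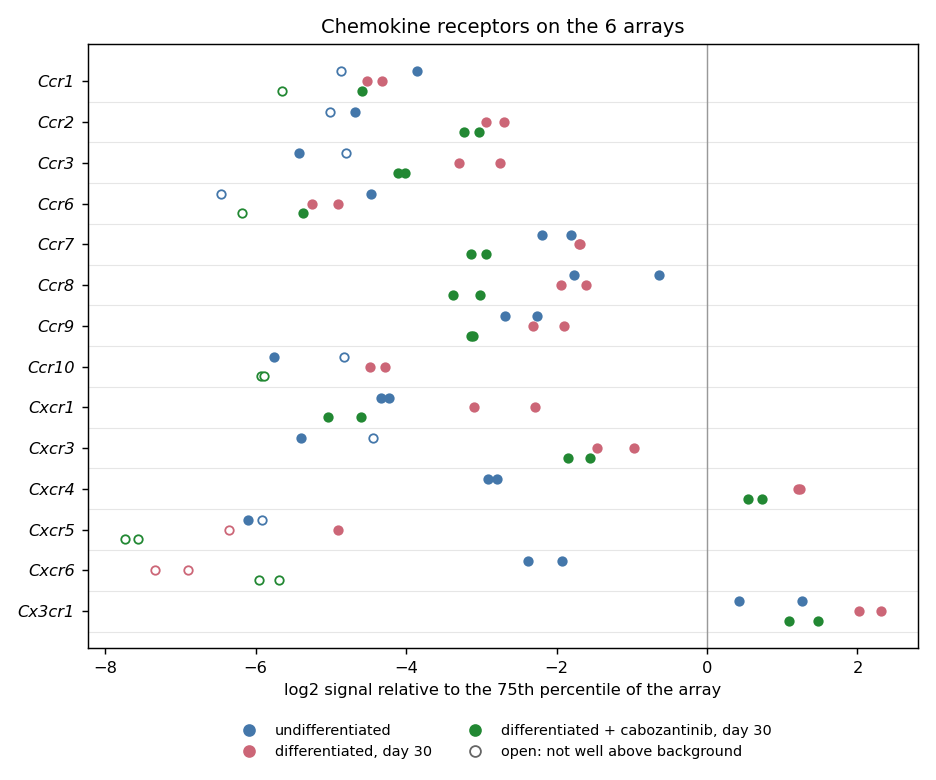
Scaled log2 signal (x axis) of 14 tested receptors on each of the 6 arrays, with 1 point per array, colors for the 3 conditions and open points where the probe was not well above background. Cxcr3 and Cxcr4 lie well to the right of their undifferentiated arrays in both other conditions, Cxcr6 is filled only on the undifferentiated arrays, and for 6 of the receptors drawn (Ccr7, Ccr8, Ccr9, Ccr10, Cxcr1 and Cxcr5) the cabozantinib arrays lie left of all others.

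Of the 15 receptors tested, 4 were higher and 1 was lower in differentiated than in undifferentiated osteoblasts (limma, adjusted p under 0.05), beside the 9.71% of all genes. The lower one, Cxcr6, was tested only through the undifferentiated arrays. Both differentiated arrays lay above both undifferentiated arrays for 8 receptors and below them for 1, beside 25.9% and 19.4% of all genes. Without the replicate term, Cxcr1 also passed, beside 13.4% of all genes. The count was 3 without differentiated replicate 1 and 3 without differentiated replicate 2. Of the 7 receptors well above background on all 6 arrays, 1 passed, Cxcr4, beside 10.6% of all genes. That gene kept its call in each of the 17 alternative limma fits, and the other 4 receptors lost theirs in at least 1 of them. The promoters of Cxcr4 and Cxcr6 are shown because Cxcr4 had the largest rise and Cxcr6 was the only receptor called lower. Build, length and marks are the same as above.
Cxcr4, chr1:128592300-128592449, minus strand: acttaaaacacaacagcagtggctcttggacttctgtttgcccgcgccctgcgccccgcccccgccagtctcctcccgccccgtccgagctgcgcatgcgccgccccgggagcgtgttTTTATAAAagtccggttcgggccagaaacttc
Cxcr6, chr9:123806327-123806476, plus strand: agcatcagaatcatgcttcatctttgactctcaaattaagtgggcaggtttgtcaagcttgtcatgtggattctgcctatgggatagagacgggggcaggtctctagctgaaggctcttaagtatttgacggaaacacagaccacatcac

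Cxcr4 had a TATA box 32 and 30 bases before its start on the 2 strands, and the stretch of Cxcr6 held none of the 3 motifs. Cxcr4, the receptor of Cxcl12, was at -2.92 and -2.79 in undifferentiated, 1.21 and 1.24 in differentiated and 0.55 and 0.74 in cabozantinib-treated osteoblasts, a rise of 4.07 ± 0.48 with differentiation (limma, adjusted p = 0.00111). Its replicates lay close together and the groups were far apart. Cxcr6, the receptor of Cxcl16, was at -2.39 and -1.93 on the undifferentiated arrays and was not well above background on any of the other 4 (-7.34 and -6.90, then -5.95 and -5.69). It was at least 13.5-fold lower in differentiated osteoblasts (limma, adjusted p = 0.000453), and a second probe gave at least 6.91-fold (limma, adjusted p = 0.00307). After normexp the log2 differences of these 2 probes were smaller than the bounds, at -1.85 and -1.35. These probes passed the filter only through the undifferentiated arrays, so they had to differ and their p-values carry no weight of their own. Both Cxcl12 and its receptor were higher with differentiation, while Cxcl16 was higher and its receptor lower.

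Cxcr3, the receptor of Cxcl9 and Cxcl10 on activated T cells and other leukocytes, was at -4.43 and -5.39, -1.46 and -0.97, and -1.85 and -1.55, a rise of 3.70 ± 0.54 (limma, adjusted p = 0.00288). Ccr2, the monocyte receptor of Ccl2, Ccl7 and Ccl12, was at -5.01 and -4.68, -2.70 and -2.94, and -3.03 and -3.23, a rise of 2.02 ± 0.49 (limma, adjusted p = 0.0284). Ccr3, the eosinophil receptor of Ccl24, was at -4.81 and -5.43, -3.30 and -2.75, and -4.01 and -4.10, a rise of 2.09 ± 0.52 (limma, adjusted p = 0.0303). All 3 were well above background on only 1 of the undifferentiated arrays. Ccr2 did not pass without any 1 of the differentiated or cabozantinib arrays (adjusted p from 0.0564 to 0.284), and Ccr3 did not pass without undifferentiated replicate 2 (0.0732), differentiated replicate 1 (0.0689) or differentiated replicate 2 (0.456). After a normexp background correction, Cxcr3, Ccr2, Ccr3 and Cxcr6 did not pass. Cx3cr1, the fractalkine receptor of macrophages and microglia, was at 1.27 and 0.43, 2.01 and 2.31, and 1.09 and 1.47, with no overlap between undifferentiated and differentiated arrays and a difference of 1.31 ± 0.53 that did not pass (limma, adjusted p = 0.179). Ccr1 was at -4.87 and -3.86, -4.32 and -4.52, and -4.59 and -5.65, and overlapped. The T and NK cell markers had 0 of 5 tested genes called here and the B cell markers 0 of 2, beside 9.71% of all genes. Cd3d, Cd3g, Cd79b and Ms4a1 were not well above background on any array. Without the replicate term, 1 of the T and NK cell markers was higher and 0 of the B cell markers were called, beside 13.4% of all genes.

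Chemokine genes that lie side by side did not all move together. On chromosome 11, the run Ccl5, Ccl9, Ccl6, Ccl3 and Ccl4 had 4 of 5 genes higher with differentiation and none lower. The run Ccl2, Ccl7, Ccl11, Ccl12, Ccl8 and Ccl1 on the same chromosome had 4 tested genes, of which 2 were higher (Ccl12 and Ccl8) and 1 was lower (Ccl7). On chromosome 5, the run Cxcl5, Ppbp, Pf4, Cxcl3, Cxcl15, Cxcl1 and Cxcl2 had 4 tested genes, 0 higher and 1 lower (Ppbp). In the receptor run on chromosome 9 with Ccr9, Cxcr6, Xcr1, Ccr1, Ccr3 and Ccr2 in this order, Ccr3 and Ccr2 were higher and Cxcr6 was lower. The gene order is that of RefSeq for GRCm38, with neighbors at most 500000 bases apart.

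**Figure D3:**
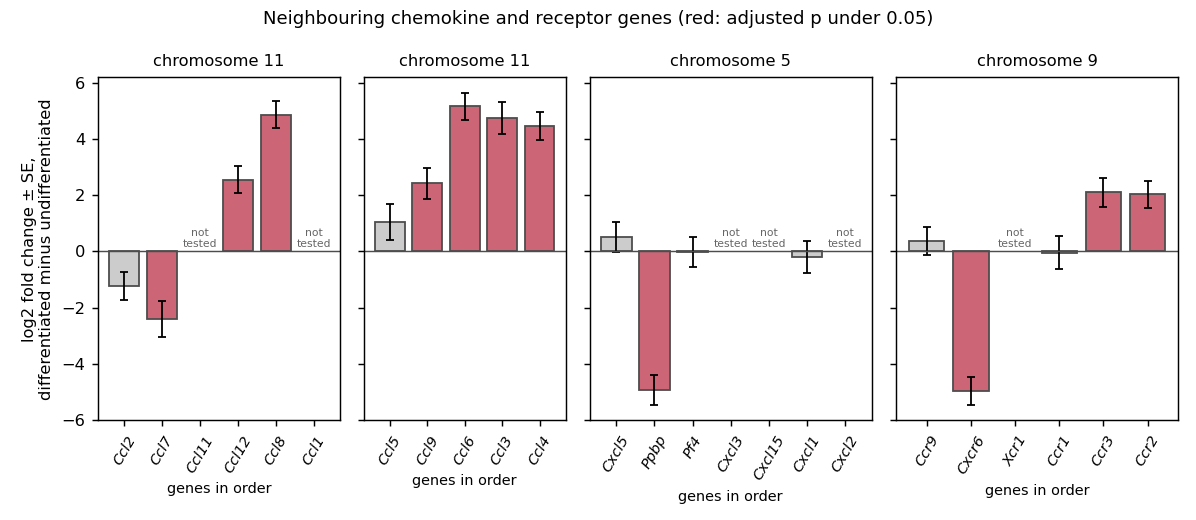
Log2 fold change of differentiated against undifferentiated osteoblasts (y axis, bars, with the SE from limma) for the 4 longest runs of neighboring members, in gene order, with red bars for an adjusted p under 0.05 and grey bars for the others. The second chromosome 11 run is higher from Ccl9 to Ccl4, while Ppbp and Cxcr6 fall beside neighbors near 0; the bars of Cxcr6 rest on arrays not well above background.

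Genes that act with the chemokines were read from 4 short lists, whose counts stand beside the 9.71% of all genes called in the same comparison. Of the atypical chemokine receptors and related receptors, 5 of 7 were tested and 1 was higher in differentiated osteoblasts, Ccrl2, by 2.00 ± 0.53 (limma, adjusted p = 0.0417). Ackr3, which also binds Cxcl12, was at -0.34 and 1.58, -0.79 and -1.90, and -1.24 and -2.68, a difference of -1.96 ± 0.77 that did not pass (limma, adjusted p = 0.164). Of the G proteins, arrestins and kinases downstream of the receptors, 14 of 15 were tested and 4 were higher: Rgs1, which shortens G protein signaling, by 3.72, the arrestins Arrb1 by 2.28 and Arrb2 by 2.52, and Pik3r5, a subunit of PI3K gamma, by 2.12. Of 13 tested cytokines, cytokine receptors, NF-kB genes and other inflammatory genes, 2 were lower, which fell by 3.69 (Il6) and fell by 4.75 (Ptgs2) on the log2 scale. Of 10 tested proteases that trim chemokines, 1 was lower, Mmp2, which fell by 2.90 on the log2 scale. In cabozantinib-treated against differentiated osteoblasts, none of the genes of these 4 lists passed (limma, adjusted p under 0.05), beside 2.67% of all genes.

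**Figure D4:**
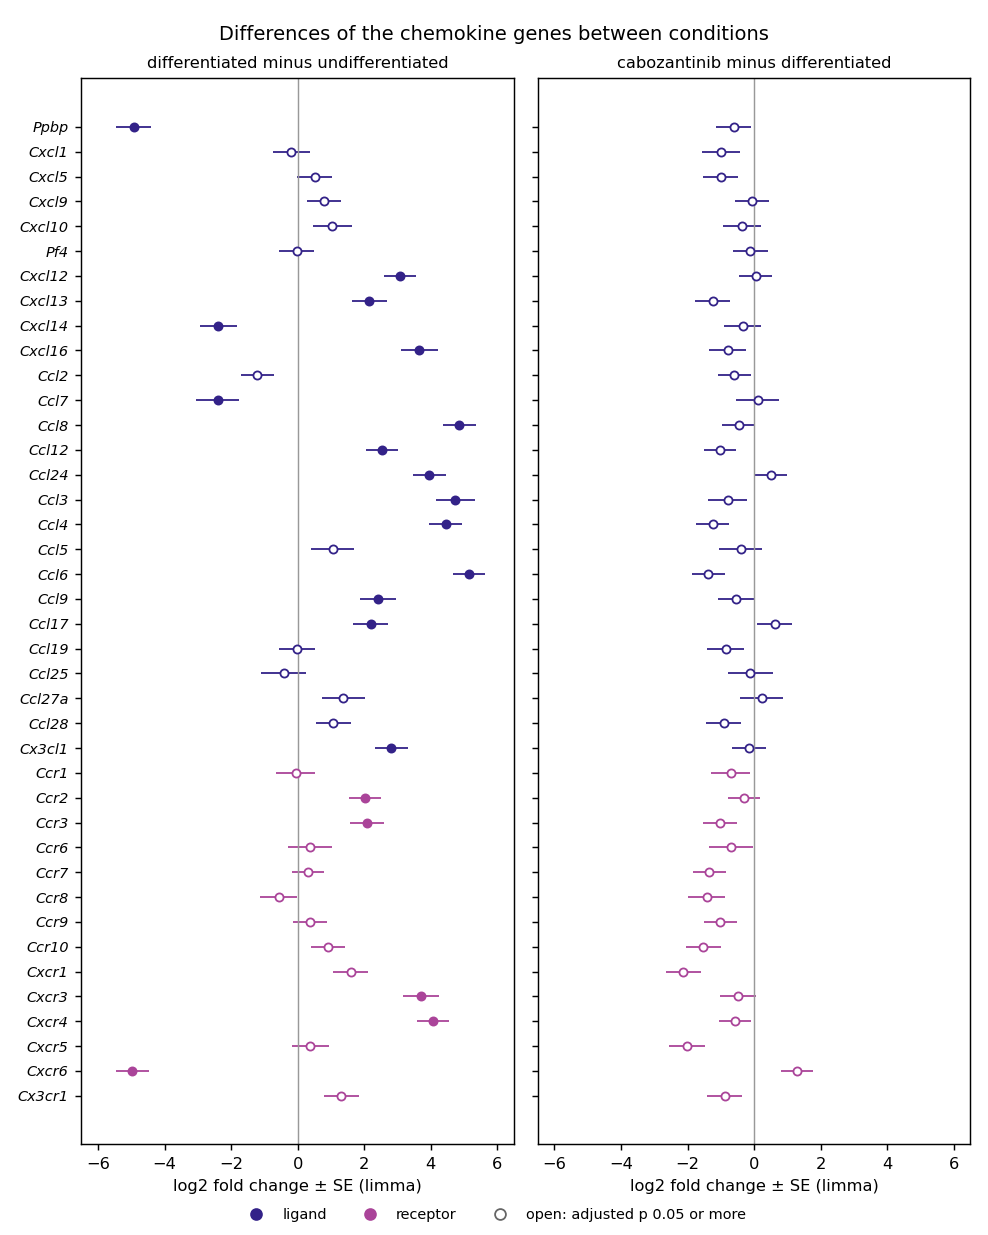
Log2 fold change and SE from limma (x axes) of 40 tested members for differentiated against undifferentiated (left) and cabozantinib-treated against differentiated osteoblasts (right), with filled points for an adjusted p under 0.05. The left panel has 20 filled points, from -4.96 (Cxcr6) to 5.15 (Ccl6), and the right panel has none, with most points left of 0; Ccl24, Cxcl13, Ccr10, Cxcr5 and Cxcr6 have a group that was not well above background.

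The next comparison addressed what cabozantinib changed in differentiated osteoblasts. None of the 26 ligands and none of the 15 receptors passed (limma, adjusted p under 0.05), beside 2.67% of all genes (28 genes or 0.121% higher and 588 or 2.55% lower). Restricted to probes well above background on all 6 arrays, 0 of 22 ligands and 0 of 7 receptors passed, beside 0.0114% of all genes. At an unadjusted p under 0.05, 3 ligands and 6 receptors passed, beside 23.4% of all genes. Without the replicate term, 1 ligand (Ccl6) and 3 receptors (Cxcr1, Cxcr5 and Ccr7) passed, beside 12.8% of all genes. Without either of the undifferentiated arrays, 4 ligands and 5 receptors passed, beside 24% of all genes. After quantile normalization and with the authors' values, 0 members and 0 of all genes passed. The median log2 difference was -0.50 over the ligands, -0.88 over the receptors and -0.29 over all genes, which became -0.33, -0.55 and -0.08 after quantile normalization.

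Of the 26 ligands, 21 had a difference below 0, and 13 were lower on both cabozantinib arrays than on both differentiated arrays, beside 44.2% of all genes. Ccl6 differed by -1.37 ± 0.48 (limma, adjusted p = 0.126, and 0.0399 without the replicate term), Ccl4 by -1.24 ± 0.50 (0.167), Ccl12 by -1.01 ± 0.48 (0.247) and Cxcl5 by -1.01 ± 0.53 (0.302). These genes did not overlap between the differentiated and the cabozantinib arrays given above. Cxcl13 passed the background on neither cabozantinib array (-6.59 and -6.31), and the differentiated arrays were at least 1.21-fold higher (limma, adjusted p = 0.19). Ccl17 and Ccl24 were the 2 ligands higher on both cabozantinib arrays, as 13.4% of all genes were, by 0.62 ± 0.53 and 0.51 ± 0.49, and neither difference passed (limma, adjusted p = 0.598 and 0.653). Cxcl12, at a difference of 0.04 ± 0.49, and Cx3cl1, at -0.16 ± 0.50, overlapped between the conditions. The macrophage list had 0 of 11 tested genes called in this comparison, beside 2.67% of all genes. Of the platelet and megakaryocyte markers 1 of 4 was lower, as was 1 of 4 endothelial markers. The other marker lists had 0 called. Without the replicate term the macrophage list still had 0. In that fit 3 platelet and megakaryocyte, 2 B cell, 2 mast cell, 1 endothelial and 1 T and NK cell markers were lower. There, 1 mast cell and 1 osteoblast marker were higher, beside 12.8% of all genes called.

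For the receptors, 13 of 15 were lower on both cabozantinib arrays, beside 44.2% of all genes and 1 was higher (Cxcr6, which was not well above background in either group). After quantile normalization the receptors with a difference below 0 went from 14 to 10, and the ligands from 21 to 18. Cxcr1, a neutrophil receptor, was at -4.34 and -4.23, -2.29 and -3.09, and -5.04 and -4.59, a difference of -2.12 ± 0.52 between cabozantinib-treated and differentiated osteoblasts (limma, adjusted p = 0.0557, and 0.026 without the replicate term). Ccr8, a receptor of regulatory and helper T cells, was at -0.63 and -1.77, -1.94 and -1.61, and -3.37 and -3.02, a difference of -1.43 ± 0.55 (limma, adjusted p = 0.156). Ccr7, the receptor of Ccl19, was at -1.81 and -2.19, -1.70 and -1.68, and -3.13 and -2.94, a difference of -1.35 ± 0.49 (limma, adjusted p = 0.135, and 0.045 without the replicate term). Ccr10, the receptor of Ccl27a and Ccl28, was at -4.82 and -5.76, -4.49 and -4.28, and -5.93 and -5.89, and passed the background on neither cabozantinib array, at least 2.13-fold lower there than on the differentiated arrays (limma, adjusted p = 0.116). Cxcr5, named here after its values were seen, was at -5.92 and -6.10, -4.91 and -6.35, and -7.73 and -7.57, and was well above background on only 1 array of each of the first 2 groups.

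Dim probes were lower on the cabozantinib arrays across the whole array, and most receptors were dim. Among all genes with a mean scaled signal of at most -4, the median difference of cabozantinib against differentiated arrays was -1.22, and 68.4% were lower on both arrays. Between -4 and -2 the median was -0.63 and 57.7% were lower on both, and in each of the 4 brighter ranges the median lay between -0.14 and -0.04. The 2 dimmest ranges held 13 of the 15 tested receptors, with medians of -0.87 (6 receptors) and -1.02 (7 receptors), but only 8 of the 26 ligands. The 2 brighter receptors, Cxcr4 and Cx3cr1, differed by -0.58 ± 0.48 and -0.88 ± 0.53 (limma, adjusted p = 0.58 and 0.381). Among the 11 ligands with a mean signal between 2 and 4, the median was -0.46, where that of all genes was -0.11. The part of signal level in the lower receptor values was not tested.

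**Figure D5:**
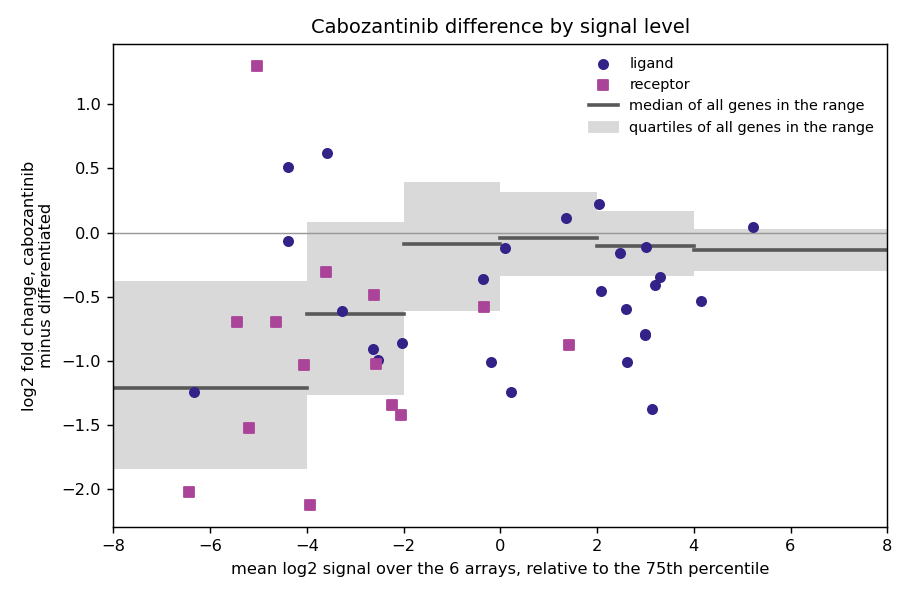
Log2 fold change of cabozantinib-treated against differentiated osteoblasts (y axis) against the mean scaled log2 signal over the 6 arrays (x axis), for tested ligands (circles) and receptors (squares), with the median (dark line) and quartiles (grey band) of all genes in each of 6 signal ranges. The grey median falls from -0.14 or above in the 4 brighter ranges to -1.22 in the dimmest, and most receptors lie in the 2 dimmest ranges.

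The last comparison set cabozantinib-treated against undifferentiated osteoblasts and shares its arrays with both comparisons above. Of the ligands, 9 of 26 were higher and 4 were lower, and of the receptors 3 of 15 were higher and 2 were lower (limma, adjusted p under 0.05), beside 13.4% of all genes, 4.68% higher and 8.71% lower. Restricted to probes well above background on all 6 arrays, 10 of 22 ligands and 2 of 7 receptors passed, beside 7.71% of all genes. Both cabozantinib arrays lay above both undifferentiated arrays for 15 ligands and 4 receptors and below them for 7 and 7, beside 19.7% and 43.6% of all genes. Over all genes, 1080 calls were higher and 2011 lower, a split that became 949 higher and 367 lower after quantile normalization. The count of ligands was 8 without cabozantinib replicate 1 and 7 without cabozantinib replicate 2. The count of receptors was 3 without undifferentiated replicate 1, 8 without undifferentiated replicate 2, and 3 and 2 without cabozantinib replicates 1 and 2. Ccl8 was higher by 4.40 ± 0.49, Ccl3 by 3.94 ± 0.58, Ccl6 by 3.78 ± 0.48, Ccl4 by 3.21 ± 0.50 and Cxcr4 by 3.49 ± 0.48, and Ppbp fell by 5.54 ± 0.52 (limma, adjusted p from 0.000615 to 0.00496). These 6 calls were kept in every alternative limma fit that tested the gene. Ccl24 was at least 10.2-fold higher and Cxcr6 at least 9.96-fold lower (limma, adjusted p = 0.0011 and 0.00249). After normexp their log2 differences were only 1.13 and -1.83, and neither passed (limma, adjusted p = 0.606 and 0.207). Cxcr6 was tested only through the undifferentiated arrays and so had to differ here too. Ccl24 was tested only through the differentiated and cabozantinib arrays, so its p-value carries no weight of its own here either. Ccl12 and Ccl9, at 1.53 ± 0.48 and 1.88 ± 0.55, did not pass (limma, adjusted p = 0.0624 and 0.0505) and passed without the replicate term (0.0184 and 0.0256), as 24.1% of all genes did.

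The other 10 members called in the comparison with undifferentiated osteoblasts depended on the fit. Cxcl12, Cxcl16, Cx3cl1 and Ccl17 were higher by 3.12, 2.85, 2.66 and 2.81, and Cxcl14 and Ccl7 fell by 2.72 and fell by 2.29 on the log2 scale. Each lost its call in at least 1 alternative fit. Ccl17 (adjusted p = 0.0599 and 0.0892), Cx3cl1 (0.109 and 0.0966) and Ccl7 (0.157 and 0.233) did not pass without cabozantinib replicate 1 or 2, Cxcl12 (0.0533) and Cxcl16 (0.105) did not pass without cabozantinib replicate 2, and Cxcl14 (0.178) did not pass without cabozantinib replicate 1. Ccl7 was also lost without undifferentiated replicate 2 (0.123), after quantile normalization (0.139) and with the authors' values (0.165). Cxcr3 was higher by 3.21 (limma, adjusted p = 0.00726, and 0.0661 without cabozantinib replicate 2) and Ccr2 by 1.72 (limma, adjusted p = 0.047). Ccr2 did not pass without undifferentiated replicate 1 (0.051), without either differentiated array (0.0725), or without cabozantinib replicate 1 (0.466) or 2 (0.364). Ccl2 and Ccr8 passed here and not between differentiated and undifferentiated osteoblasts. Ccl2 fell by 1.81 ± 0.50 (limma, adjusted p = 0.0415) and Ccr8 fell by 2.00 ± 0.55 (limma, adjusted p = 0.0429). For both, the difference between cabozantinib-treated and differentiated osteoblasts did not pass, as given above for Ccr8 and at -0.59 ± 0.50 for Ccl2 (limma, adjusted p = 0.583). Both calls were lost after quantile normalization (adjusted p = 0.0781 and 0.136), without cabozantinib replicate 1 (0.299 and 0.454) and without cabozantinib replicate 2 (0.426 and 0.182).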

How the data were processed

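The 6 RNA samples were labeled with Cy3 and hybridized to Agilent 4x44K whole mouse genome arrays. The deposited scanner files (Feature Extraction 11.0.1.1) hold, per the file headers, background-subtracted processed intensities that are not scaled between arrays, with the median signal of each spot. The authors also deposited a table of log2 values, whose normalization is not given in the sources used here.

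The 39429 probes were named through RefSeq accessions, 69.1% of them, since the files hold no gene symbols. Outlier spots were left out, log2 intensities were averaged per probe, and each array's 75th percentile was subtracted. The 27236 probes well above background on at least 2 arrays were fitted with limma 3.58.1 (R 4.3.3) on all 6 arrays, with condition and replicate number as terms and Benjamini-Hochberg adjustment over probes. The fit left 2 residual degrees of freedom, and pooling of variances added 7.69. The replicate term follows the paired test that the methods of the study name. Values in every sample were given for members called in any comparison, for the 5 ligands and 3 receptors with the largest differences in each direction among those above background on both arrays of a group, and for the brightest members. The members and gene lists were chosen with earlier results of these data known. The scan could not be fitted as a block for the cabozantinib comparisons. Scripts were tested on simulated data. Values of 1 receptor, which is in the counts, are not reported here. Figures were drawn with matplotlib 3.10.9.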

Additional observations from a re-analysis of the deposited data

How the results depend on the processing

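The counts of ligands, receptors and all genes called are given in this order. For differentiated against undifferentiated osteoblasts (15, 5 and 2241), normexp background correction on median signals, added after seeing the data, gave 9, 1 and 673. No filter on dim probes gave 3 receptors and 1403 genes, probes well above background on all arrays gave 1 receptor, and the authors' values gave 1464 genes. For cabozantinib-treated against differentiated osteoblasts (0, 0 and 616), the fit without the replicate block gave 1, 3 and 2948, only the 4 arrays compared 4, 5 and 5530, and those arrays without the replicate block (added later) 3, 6 and 4795. A variance trend gave 1 receptor, and the mean of a gene's probes gave 1 receptor and 1112 genes. Quantile normalization, normexp, the authors' values and no filter gave 0 genes, and probes above background on all arrays gave 2. For cabozantinib-treated against undifferentiated osteoblasts (13, 5 and 3091), normexp gave 7, 1 and 464, quantile normalization 1316 genes, the authors' values 3 receptors and 1025 genes, no filter 3 and 1169, probes above background on all arrays 2 and 1350, and no replicate block 5572 genes. The replicate block changed no other of these counts by over 1.5 times. Arrays with the same replicate number did not deviate together from their group means (correlations of -0.51, -0.53 and 0.26), so the number was not a pairing that these data show. A scan block was not run for the cabozantinib comparisons.

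The methods' t-test, paired, and an unpaired test gave 0 calls in all comparisons after Benjamini-Hochberg adjustment, except 1 gene in the last by the unpaired test. At more than 2-fold and an unadjusted p under 0.05, the methods' t-test gave 4, 2 and 857, then 1, 4 and 2328, then 6, 2 and 1252. The same rule gave 3, 6 and 5400 with limma and 4, 6 and 3785 with the unpaired test for cabozantinib-treated against differentiated osteoblasts, and 4670 and 7278 genes with limma in the other comparisons. With the undifferentiated replicate numbers exchanged, a pairing added after seeing the data, all genes called were 6027, 7064 and 10304, with 6 ligands and 9 receptors in the second comparison and 8 receptors in the last.

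Leaving out 1 array at a time, which assumes that the lone array left varies like the others, gave 8 to 18 ligands, 3 to 7 receptors and 1350 to 4403 genes in the first comparison, 0 to 4, 0 to 5 and 41 to 5539 in the second, and 7 to 17, 2 to 8 and 692 to 8505 in the last. In the second, genes called were 5532 and 5539 without undifferentiated replicates 1 and 2. The median difference of the ligands in the last comparison was 0.81 and became 1.53 after quantile normalization.

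Among the 41 tested members, quantile normalization turned the sign of the difference for 1, 7 and 5 in the 3 comparisons, of which 0, 4 and 5 were receptors, and normexp for 4, 1 and 4; 0 of these were called in the comparison. Receptors with a difference below 0 went from 14 to 10 of 15 in the second comparison after quantile normalization and from 10 to 5 in the last. Of the values with a call or at least 2-fold, Ccl5 in the first comparison (1.05) ran from -0.066 without undifferentiated replicate 2 to 2.16 without undifferentiated replicate 1, and Ccr3 in the last became -0.051 after normexp. The median of all genes in the first became -0.057 after normexp, and with 1 array left out ran from -0.25 without undifferentiated replicate 2 to 0.49 without undifferentiated replicate 1, with -0.11 without differentiated replicate 2. The median of the receptors in the last became 0.29 after quantile normalization and 0.27 with the authors' values. The cause was not tested. With 2 arrays in each group, precision is limited by their number, and for most receptors by a signal near background.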

Other observations

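A second probe of Ccl25 was well above background on 1 array, cabozantinib replicate 1, at -2.68, and read -7.69 on cabozantinib replicate 2 and from -8.70 to -6.95 on the other 4 arrays. Cxcl3 read -3.52 on undifferentiated replicate 2 and -6.30 on undifferentiated replicate 1, and from -7.69 to -7.28 elsewhere. A second probe of Cx3cr1 was lower on the cabozantinib arrays (-7.63 and -6.88) than on the undifferentiated arrays (-4.47 and -5.46), which were at least 1.42-fold higher (limma, adjusted p = 0.0307), while the brighter probe of the gene differed by 0.43 ± 0.53 between these groups (limma, adjusted p = 0.636).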
